A study of Mus musculus with 6 samples.

Results

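The 41 genes described here encode soluble enzymes that act inside the lysosome, their activator proteins, proteins of the lysosomal membrane, progranulin and TFEB, a transcription factor of lysosomal genes. They were named one by one, by symbol, and every one of them was found among the 24940 rows of the deposited exon count table and passed the filter on low counts that left 12687 tested genes. RNA sequencing was done on 6 libraries of primary hepatic stellate cells, liver pericytes that store vitamin A, from female mice of the strain C57BL/6JBomTac. In 3 libraries, OCA A, B and C, the cells had received obeticholic acid (OCA) at 10 µM, a bile acid derivative and agonist of the nuclear receptor FXR, and in 3, DMSO A, B and C, the same volume of the vehicle dimethyl sulfoxide. Treatment began 2 days after isolation and lasted 6 hours, no library came from untreated cells, and no allele or transgene is named in the labels. Whether libraries of 1 group stem from different animals or cultures is not said in the labels, so p-values cover the spread between libraries only, which may be technical.

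Lysosomal enzymes are made in the endoplasmic reticulum, tagged with mannose 6-phosphate in the Golgi and carried to an acidic compartment, where they take apart glycoproteins, sphingolipids, glycosaminoglycans, glycogen and proteins delivered by endocytosis and autophagy. Many of the genes carry E-boxes of the CLEAR type near their start, which TFEB and its relatives bind when nutrients are scarce. Stellate cells are known to break down their lipid droplets through autophagy, and in hepatocytes FXR is known to restrain autophagy genes in the fed state.

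Of the 41 genes, 12 fell under OCA, 0 rose and 29 did not pass the test, where 3.03% of all tested genes were lower and 2.18% were higher by the same rule. The list was chosen with earlier results of these data known, so this count describes the listed genes and is not a test of them as a set. The call is an adjusted p under 0.05 in the quasi-likelihood test of edgeR, adjusted over all 12687 genes by the Benjamini-Hochberg method. The genes that fell were the mannosidases Man2b1 and Man2b2, the glycogen-degrading Gaa, the sphingolipid genes Psap, Gm2a and Hexa, the sulfatase Ids, the proteases Ctsa, Ctsb, Ctsd and Ctsl, and Lamp1. Changes are given as log2 ratios of OCA over DMSO with a standard error (SE). Of the 41 members 33 lay below 0, and of all 12687 tested genes 6316 did. The median of the members was -0.15, against 0.00 over all tested genes. An unadjusted p under 0.05 was found for 19 members, all of them below 0, and for 2405 of all tested genes, in either direction. DESeq2 and limma-voom also called 0 members higher, and 11 and 12 members lower, where 2.96% and 3.18% of all tested genes were lower.

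Levels are in CPM, that is counts after TMM scaling to 1 library size, and a mean ± SD is over n = 3 libraries. The summed level of all 41 genes was 4894, 5436 and 5022 CPM in DMSO A, B and C. It was 4268, 4871 and 4365 CPM in OCA A, B and C. Every OCA library was thus below every DMSO library, though OCA B came within a small distance of DMSO A. For single genes, each OCA library was lower than each DMSO library in 16 of the 41, where 11.3% of all tested genes showed that order, and higher in 2, Smpd1 and Mcoln1, where 11.6% of all tested genes did. In RNA from whole cultures, fewer cells of a type and less RNA per cell cannot be told apart.

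**Figure D1:**
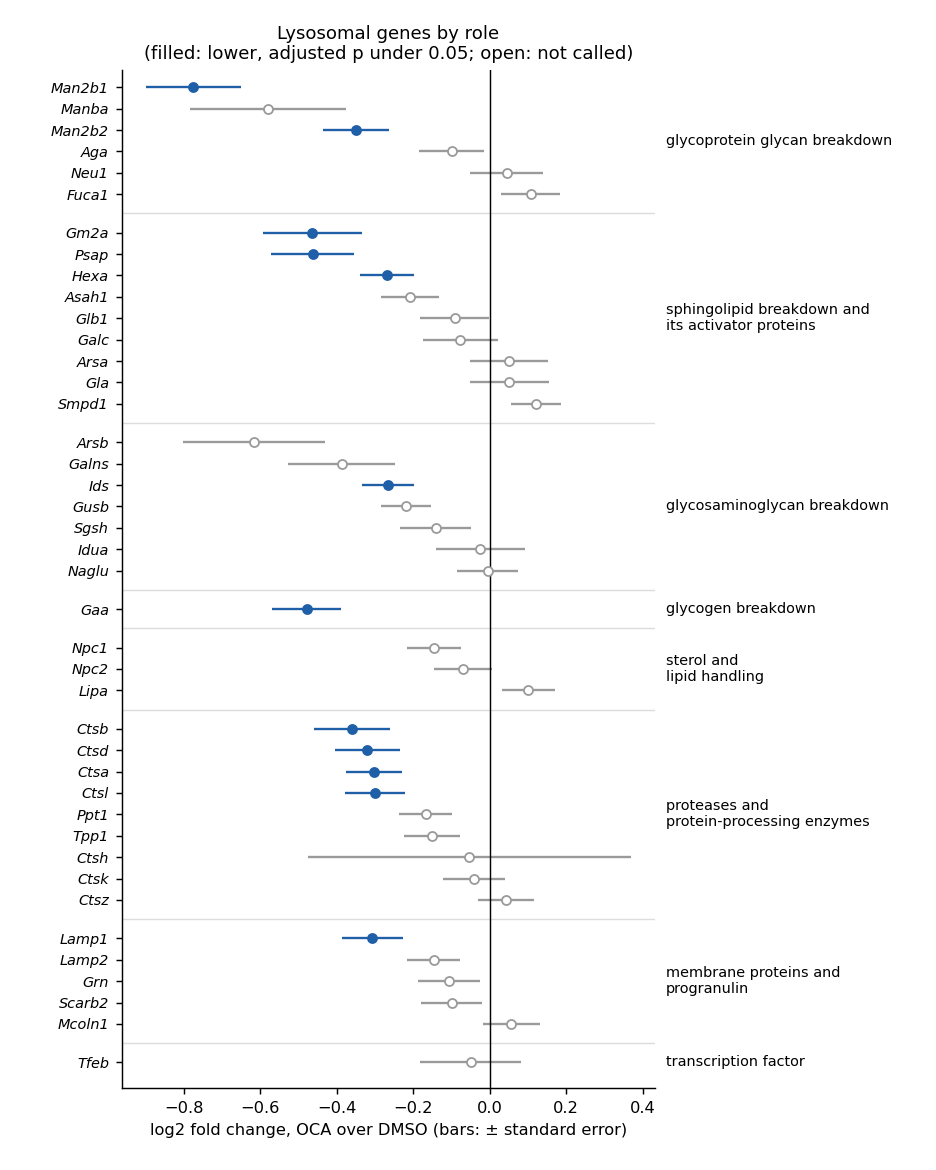
Log2 ratio of each of the 41 lysosomal genes (x axis, OCA over DMSO), grouped by the role of the protein, with bars of 1 standard error on each side. Filled points mark the 12 genes called lower and open points the 29 not called; the points range from -0.78 for Man2b1 to 0.12 for Smpd1.

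OCA B stood apart from the other OCA libraries in these genes. It had the highest level of its group in 28 of the 41 members and in 12 of the 12 called ones, against 33.3% of all tested genes. Some genes outside the list shared this pattern. In OCA A, B and C the stellate cell marker Reln was at 261, 489 and 225 CPM, and the endocytic receptor Lrp1 at 578, 1193 and 577 CPM. DMSO B had the highest level of its group in 25 members, among them 8 of the called ones, against 34.2% of all tested genes. Total counts ranged from 12260882 in DMSO B to 16336240 in DMSO A, and 3 counts, the floor of detection used here, are worth 0.181 to 0.251 CPM. Counting limits of this kind cover counting error only.

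Glycoprotein breakdown held the largest change of the 41 genes. Man2b1 encodes the lysosomal alpha-mannosidase that strips mannose from N-linked glycans, and its loss causes the storage disease alpha-mannosidosis. It lies on chromosome 8 of the build mm10, 85083269 to 85098739, plus strand, and its listed transcript NM_010764 has 4299 exonic bases. Man2b1 was at 35.9, 31.2 and 30.5 CPM in DMSO A, B and C, and at 18.2, 22.4 and 16.4 CPM in OCA A, B and C. The groups did not overlap, and the lowest DMSO library was well above the highest OCA library. The mean fell by 41.6%, from 32.5 ± 2.94 to 19.0 ± 3.10 CPM (log2 ratio -0.78 with SE 0.12 and adjusted p = 0.000646). Man2b1 was called in each of the 6 fits that left out 1 library, with log2 ratios from -0.91 without OCA B to -0.68 without OCA C. It was also called under the other 15 alternatives. Its exons overlap no other annotated gene.

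The 250 bases upstream of the Man2b1 start are shown because the gene changed most. They cover chr8:85083019-85083268 on the plus strand (RefSeq, GRCm38.p6, the assembly that mm10 names) and hold no CACGTG.
Man2b1: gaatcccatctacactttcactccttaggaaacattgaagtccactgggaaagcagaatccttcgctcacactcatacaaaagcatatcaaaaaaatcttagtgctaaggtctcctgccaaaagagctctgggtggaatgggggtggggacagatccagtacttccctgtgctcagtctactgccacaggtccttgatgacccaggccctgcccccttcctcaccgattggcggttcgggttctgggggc

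Man2b2, another lysosomal alpha-mannosidase (chromosome 5, 36806813 to 36830649, minus strand), was at 74.7, 67.3 and 69.1 CPM in DMSO A, B and C and at 54.1, 62.4 and 49.3 CPM in OCA A, B and C. The groups did not overlap, with OCA B closest to the DMSO libraries. The level of Man2b2 fell by 21.5%, a log2 ratio of -0.35 (SE 0.09 and adjusted p = 0.0243), and leaving out any 1 library but OCA B removed the call. Manba, the beta-mannosidase that removes the last mannose of the glycan core, was at 16.7, 15.2 and 13.4 CPM in the DMSO libraries and 9.27, 14.1 and 6.83 CPM in the OCA libraries. OCA B overlapped the DMSO range, and Manba did not pass (log2 ratio -0.58 with SE 0.20 and adjusted p = 0.112), although without OCA B it was called at -0.90. The fucosidase Fuca1, the sialidase Neu1 and Aga, which cuts the bond between glycan and asparagine, were not called, with log2 ratios of 0.11, 0.04 and -0.10. Of the 6 glycoprotein genes, 2 therefore fell and both are alpha-mannosidases.

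Sphingolipid breakdown had 3 of 9 members lower, and all 3 act around the saposins and the ganglioside GM2. Psap encodes prosaposin, the precursor of the saposins that lift lipids out of membranes for the hydrolases (chromosome 10, 60277628 to 60302600, plus strand). Psap was at 337, 386 and 358 CPM in DMSO A, B and C and at 228, 331 and 225 CPM in OCA A, B and C. OCA A and OCA C were alike, and OCA B lay just below the lowest DMSO library. Psap fell by 27.5%, with a log2 ratio of -0.46 (SE 0.11 and adjusted p = 0.0170). That call was kept without OCA B or DMSO A, lost without each of the other libraries, and lost with DESeq2 and with robust estimation.

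Gm2a, the activator protein that presents GM2 to the enzyme (chromosome 11, 55097985 to 55113028, plus strand), was at 27.7, 28.4 and 21.6 CPM in DMSO and at 17.5, 21.05 and 17.8 CPM in OCA. DMSO C lay close to OCA B. Gm2a fell by 27.5%, a log2 ratio of -0.46 (SE 0.13 and adjusted p = 0.0441), a call kept only without OCA B or DMSO C among the fits that left out 1 library and lost with limma-voom. Hexa, the alpha subunit of beta-hexosaminidase A, which cleaves GM2 (chromosome 9, 59539540 to 59565109, plus strand), was at 146, 156 and 155 CPM in DMSO and at 117, 138 and 124 CPM in OCA. Hexa fell by 17.01% without overlap of the groups (log2 ratio -0.27 with SE 0.07 and adjusted p = 0.0303), and without OCA A, OCA C, DMSO B or DMSO C it was not called.

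The other sphingolipid genes did not pass. Asah1, the acid ceramidase, had 127, 150.3 and 129 CPM in DMSO and 117, 125 and 109.8 CPM in OCA. Its groups did not overlap, but its fold change of -0.21 (SE 0.08) had an adjusted p of 0.122. Smpd1, the acid sphingomyelinase, had the highest fold change of the 41 genes, at 0.12 (SE 0.07), with 103, 110.3 and 104 CPM in DMSO and 112, 114 and 118 CPM in OCA. The groups did not overlap, but the difference in Smpd1 was under 2 standard errors and its adjusted p was 0.325. The beta-galactosidase Glb1, the alpha-galactosidase Gla, the galactosylceramidase Galc and the sulfatase Arsa had log2 ratios of -0.09, 0.05, -0.08 and 0.05.

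Glycosaminoglycan breakdown proceeds by enzymes that cut the chain and its sulfates in turn, and all 7 of its listed genes lay below 0, with 1 called. Ids, the iduronate-2-sulfatase of heparan and dermatan sulfate (X chromosome, 70343070 to 70365085, minus strand), was at 96.4, 92.2 and 91.9 CPM in DMSO and 75.4, 80.9 and 76.8 CPM in OCA. The libraries of each group were close together and the groups were clearly apart. Ids fell by 16.9% (log2 ratio -0.27 with SE 0.07 and adjusted p = 0.0274), and only the fit without OCA B kept that call among those that left out 1 library. Length offsets also removed it.

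Gusb, the beta-glucuronidase, was nearest to the threshold among the members not called. It had 100.1, 102 and 102 CPM in DMSO and 85.98, 89.9 and 85.3 CPM in OCA, groups that did not overlap, with a log2 ratio of -0.22 (SE 0.07 and adjusted p = 0.0586). Arsb, which removes sulfate from dermatan and chondroitin sulfate, had 22.7, 24.5 and 26.3 CPM in DMSO and 10.8, 23.0 and 14.1 CPM in OCA. OCA B again lay within the DMSO range, and the log2 ratio of -0.62 (SE 0.19) had an adjusted p of 0.0610. Arsb was called with DESeq2, with limma-voom and without OCA B, where it was at -0.98. Of its annotated exonic bases, 59.7% overlap exons of another gene, and no source used here gives the strand setting of the counting, so its level is uncertain.

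Galns, a sulfatase of keratan and chondroitin sulfate, had 20.6, 16.1 and 20.5 CPM in DMSO and 15.4, 13.6 and 14.8 CPM in OCA. Its OCA libraries all lay below its DMSO libraries, but DMSO B was near them, and the test did not pass (log2 ratio -0.39 with SE 0.14 and adjusted p = 0.125). The heparan sulfate enzymes Sgsh, Idua and Naglu had fold changes of -0.14, -0.02 and -0.01 on the log2 scale.

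Gaa, the acid alpha-glucosidase that breaks down glycogen in the lysosome and whose loss causes Pompe disease, had the smallest p after Man2b1 among the 41 genes (chromosome 11, 119267963 to 119285458, plus strand). Gaa was at 133, 121 and 129 CPM in DMSO A, B and C, and at 82.7, 109.7 and 82.4 CPM in OCA A, B and C. OCA A and OCA C were nearly equal, and OCA B lay between them and the DMSO libraries. The mean fell by 28.3%, from 128 ± 6.20 to 91.6 ± 15.7 CPM (log2 ratio -0.48 with SE 0.09 and adjusted p = 0.00322). Gaa and Man2b1 were the only members called in all 6 fits that left out 1 library. For Gaa these fits gave log2 ratios from -0.63 to -0.41, and its exons overlap no other annotated gene. Its upstream sequence is shown for the E-box it holds (capitals), which starts 140 bases before the transcript start, in chr11:119267713-119267962 on the plus strand.
Gaa: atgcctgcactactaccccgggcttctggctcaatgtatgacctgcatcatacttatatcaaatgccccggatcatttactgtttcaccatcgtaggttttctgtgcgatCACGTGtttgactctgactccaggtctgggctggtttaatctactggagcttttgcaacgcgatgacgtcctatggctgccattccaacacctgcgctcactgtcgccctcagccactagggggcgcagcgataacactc

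Sterol and lipid handling had 0 of 3 members called by edgeR, DESeq2 or limma-voom, and 0 with an unadjusted p under 0.05. Npc1 and Npc2, the pair that moves cholesterol out of the lysosome, had log2 ratios of -0.15 (SE 0.07) and -0.07 (SE 0.08). Lipa, the acid lipase that splits cholesteryl esters and triglycerides, had 0.10 (SE 0.07), with 174 ± 6.47 CPM in DMSO and 186 ± 14.9 CPM in OCA.

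**Figure D2:**
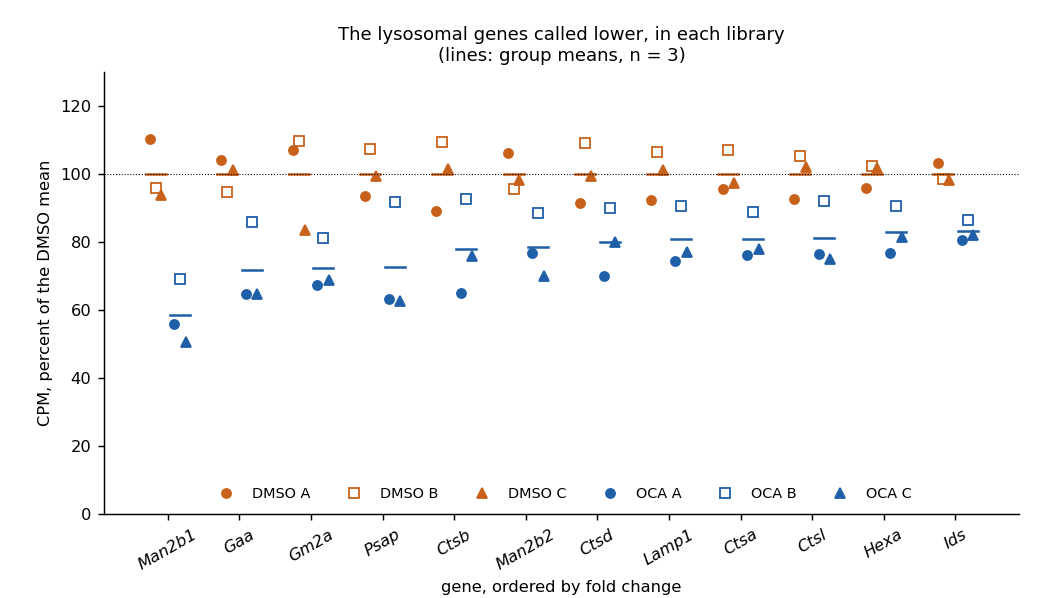
Level of each of the 12 genes called lower in each library (y axis, CPM as percent of that gene's DMSO mean), DMSO in orange and OCA in blue, with lines at the group means (n = 3). OCA B (open blue squares) is the highest OCA library in all 12, and in Ctsb it lies above DMSO A.

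Lysosomal proteases and protein-processing enzymes had 4 of 9 members lower, the most of any role. Ctsd encodes cathepsin D, the main aspartic protease of the lysosome (chromosome 7, 142375916 to 142387870, minus strand). Ctsd was at 267, 318 and 290.5 CPM in DMSO A, B and C and at 205, 263 and 233 CPM in OCA A, B and C. OCA B and DMSO A nearly met. Ctsd fell by 19.9% (log2 ratio -0.32 with SE 0.09 and adjusted p = 0.0329). Of its exonic bases 31.5% overlap a gene model on the same strand, Gm49369, so its level is uncertain.

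Ctsb, the cysteine protease cathepsin B (chromosome 14, 63122462 to 63145923, plus strand), was at 225, 276 and 256 CPM in DMSO and 164, 234 and 192 CPM in OCA. It is the only called member whose groups overlapped, since OCA B was above DMSO A. Ctsb fell by 22.0% (log2 ratio -0.36 with SE 0.10 and adjusted p = 0.0409), and DESeq2, robust estimation and length offsets did not call it. Ctsl, the cysteine protease cathepsin L (chromosome 13, 64361890 to 64370520, minus strand), was at 150.0, 171 and 165 CPM in DMSO and 124, 149 and 121 CPM in OCA. Only OCA B came near the DMSO libraries. Ctsl fell by 18.8% (log2 ratio -0.30 with SE 0.08 and adjusted p = 0.0311).

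Ctsa, a serine carboxypeptidase that also shields Neu1 and Glb1 from degradation (chromosome 2, 164832872 to 164841032, plus strand), was at 134, 151 and 137 CPM in DMSO and 107, 125 and 109.7 CPM in OCA. Its groups did not overlap. Ctsa fell by 19.0% (log2 ratio -0.30 with SE 0.07 and adjusted p = 0.0199), while its partners Neu1 and Glb1 were not called. The calls of Ctsa, Ctsb, Ctsd and Ctsl were kept without OCA B or DMSO A and lost without each of the other 4 libraries. Exons of other annotated genes overlap 16.3% of the exonic bases of Ctsb, 28.2% of those of Ctsl and 22.3% of those of Ctsa, which makes their levels uncertain to that extent.

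The other members of this role were not called. Ppt1, the thioesterase that removes palmitate from proteins, had 114, 121 and 108 CPM in DMSO and 96.1, 106 and 103 CPM in OCA. Its groups did not overlap, with a log2 ratio of -0.17 (SE 0.07 and adjusted p = 0.190). Tpp1, the tripeptidyl peptidase, had -0.15 (SE 0.07), with OCA B and OCA C above DMSO A. Ctsz, a carboxypeptidase with one of the highest levels of the 41 genes, had 167, 204 and 190.1 CPM in DMSO and 185, 194 and 198 CPM in OCA. Those values are intermixed, and its log2 ratio was 0.04 (SE 0.07 and adjusted p = 0.797). Ctsk, the collagen-cutting cathepsin K, had -0.04 (SE 0.08). Ctsh was the least expressed member, with 1.81, 2.05 and 1.95 CPM in DMSO and 0.901, 1.84 and 2.79 CPM in OCA, and its SE of 0.42 on the log2 scale leaves its direction unresolved.

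Of the membrane proteins and progranulin, 1 of 5 members fell. Lamp1 encodes one of the most abundant glycoproteins of the lysosomal membrane (chromosome 8, 13159161 to 13175338, plus strand). Lamp1 was at 320.3, 368 and 350.4 CPM in DMSO A, B and C and at 258, 314 and 267 CPM in OCA A, B and C. OCA B lay just under DMSO A, and the other OCA libraries were well below. Lamp1 fell by 19.2% (log2 ratio -0.31 with SE 0.08 and adjusted p = 0.0299), and of the fits that left out 1 library only those without OCA B or DMSO A kept that call. Lamp2, its relative that also serves as a receptor in chaperone-mediated autophagy, had 320.4, 354 and 322 CPM in DMSO and 287, 317 and 296 CPM in OCA. These did not overlap, but the log2 ratio of -0.15 (SE 0.07) had an adjusted p of 0.264.

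Grn, progranulin, had 242, 294 and 252 CPM in DMSO and 222, 262 and 247 CPM in OCA, with intermixed libraries and a log2 ratio of -0.11 (SE 0.08 and adjusted p = 0.504). Scarb2, the carrier of glucocerebrosidase to the lysosome, had -0.10 (SE 0.08). Mcoln1, the calcium channel through which lysosomes signal to TFEB, had 55.9, 57.4 and 58.4 CPM in DMSO and 59.3, 58.8 and 60.5 CPM in OCA. All 3 OCA libraries of Mcoln1 lay above the DMSO libraries by a small margin (log2 ratio 0.06 with SE 0.07 and adjusted p = 0.723).

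Tfeb itself was at 23.8, 22.2 and 19.0 CPM in DMSO and 18.1, 23.8 and 20.8 CPM in OCA. The groups were intermixed, with a log2 ratio of -0.05 (SE 0.13 and adjusted p = 0.874), so a change in its transcript was not detectable here. The simulated data give a rough scale for such values. For OCA against DMSO over 12687 genes, 46% of 50 genes changed by 1.3-fold were recovered, and 88% of 50 changed by 1.5-fold. The changes were placed in genes above a minimum level, and each gene was given the spread typical of its level. These rates therefore do not cover genes with a larger spread.

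Compared per kilobase of transcript, the members spanned a wide range of levels and the called ones did not gather at one end. The highest mean levels over the 6 libraries were 141 CPM per kb for Lamp1, 135 for Ctsd, 132 for Ctsz, 118 for Psap and 109 for Grn. Between each neighbouring pair of these the ranges of the libraries overlapped, so their order is not resolved. The lowest levels were 1.17 CPM per kb for Ctsh, 3.44 for Manba and 5.09 for Arsb. Man2b1, at 5.99 CPM per kb, ranked 37 of 41, Gm2a ranked 38 and Gaa, at 31.0, ranked 22. Called genes thus include the top of the order (Lamp1, Ctsd, Psap) and its lower end.

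Leaving out 1 library changed the count of members called lower strongly. When an OCA library was left out, the count was 2 (A), 16 (B) and 2 (C), and when a DMSO library was left out, it was 9 (A), 2 (B) and 3 (C). Of all tested genes, 0.809%, 5.9% and 0.976% were lower without OCA A, B and C. Without DMSO A, B and C, 0.81%, 1.56% and 1.8% were lower. The count over all tested genes thus also moved, from 104 without OCA A or DMSO A to 758 without OCA B, against 384 with all libraries. Man2b1 and Gaa were among the called members each time, and none of the 6 fits called a member higher. In these 6 fits the highest log2 ratio of any of the 12 called genes was -0.22. Without OCA B and DMSO A together, 17 members were lower, where 4.75% of all tested genes were. By the summed level of the members, OCA B was the highest OCA library and DMSO A the lowest DMSO library. Leaving out both therefore widens the difference in that sum, so this count is no check of the calls.

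**Figure D3:**
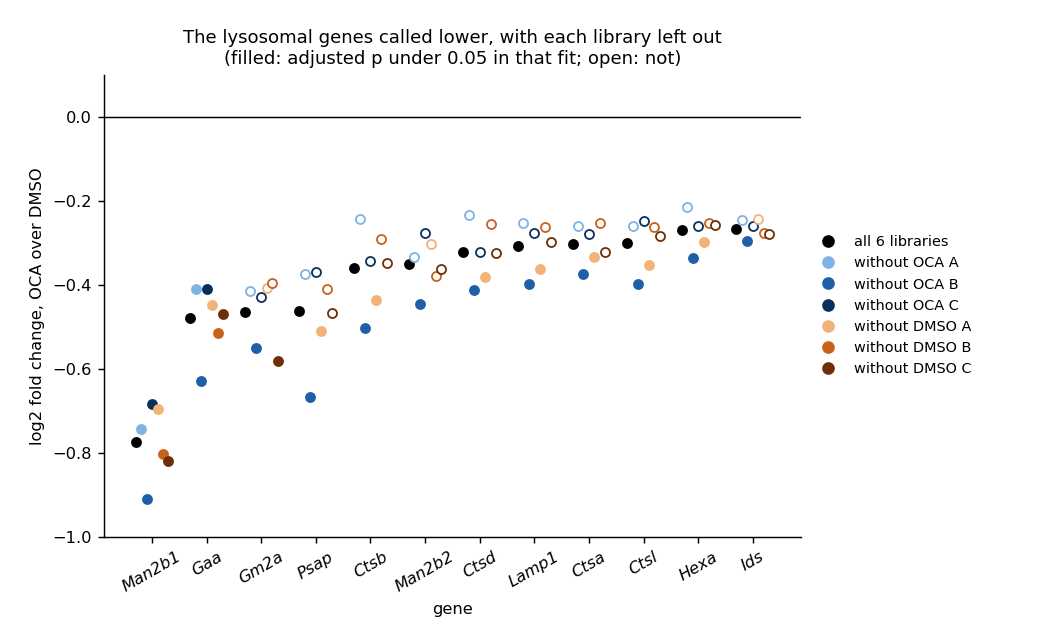
Log2 ratio (y axis, OCA over DMSO) of the 12 genes called lower, with all 6 libraries (black) and with each library left out (colours); filled points passed adjusted p under 0.05 in that fit and open points did not. Man2b1 and Gaa are filled in every fit, and the values without OCA B are the lowest for 11 of the 12 genes.

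Transcript length and the density of counts moved with the fold changes of all genes, and their part in the result was not tested. The median log2 ratio went from 0.10 in the shortest eighth of tested genes to -0.14 in the longest, and the longest eighth, from 5782 bases, held 12.7% lower genes and 0 of the 41 members. Among the 8278 tested genes within the members' range of length and level, 1.90% were lower. The densest genes went the other way. In the eighth with the most counts per base, from 0.855 counts per base up, the median of all genes was 0.09 and 0.631% were lower, while 4 of the 8 members in it were lower and their median was -0.21. The ratio of counts between DMSO A and DMSO B also varied with density. DMSO A held 1.33 times the total of DMSO B. The median ratio of their counts was 1.53 in the sparsest eighth and 1.22 in the densest. Other pairs of libraries were not compared in this way.

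With offsets fitted to length in each library, 11 members were lower, where 1.81% of all tested genes were. With offsets for counts per base, 14 members were lower, where 2.74% of all tested genes were. The share of higher genes among all calls moved from 41.8% to 62.1% with length offsets, so the balance over all genes leans on that choice, while the count of members higher was 0 under both. Gm2a lost its call with either offset (adjusted p = 0.0999 for counts per base), and Asah1, Lamp2 and Gusb gained one with offsets for counts per base.

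**Figure D4:**
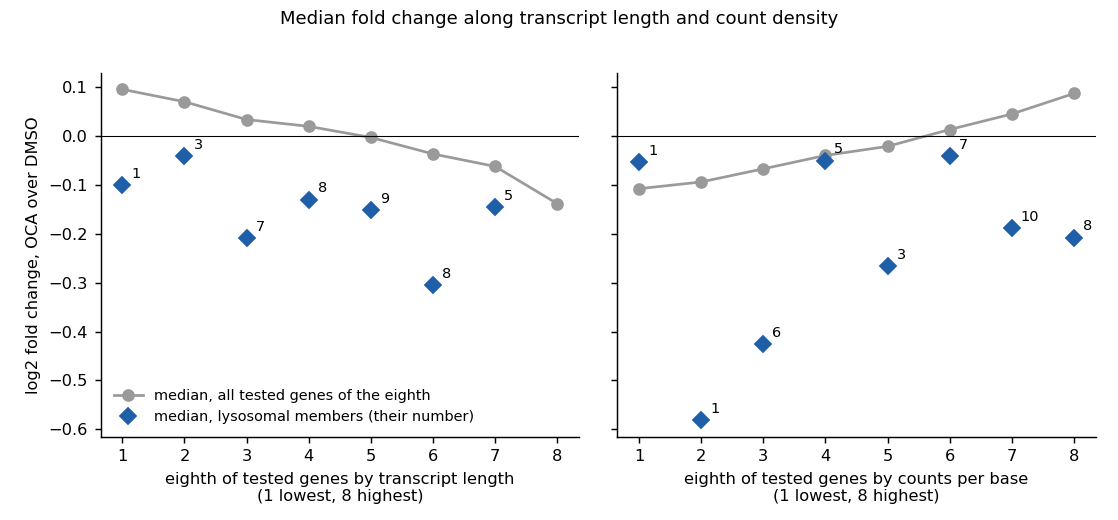
Median log2 ratio (y axis, OCA over DMSO) of all tested genes (grey line) and of the lysosomal members (blue diamonds, with their number) in eighths of the tested genes by transcript length (left) and by counts per base (right). In the densest eighth the median of all genes is 0.09 and that of its 8 members is -0.21.

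Genes of the lysosome outside the list were examined in 5 further groups of 83 genes, of which 82 were tested. Of these, 2 fell, 1 rose and 79 did not pass. The share that fell, 2.44%, was near the 3.03% of all tested genes. Among 23 other tested hydrolases 1 fell and 18 lay below 0, with a median of -0.13. It was Lgmn, the asparaginyl endopeptidase that activates cathepsins, at 81.6, 85.9 and 85.2 CPM in DMSO and 66.5, 72.4 and 59.7 CPM in OCA (log2 ratio -0.35 with SE 0.08 and adjusted p = 0.0121). Its groups did not overlap, and the call was lost without OCA C, DMSO B or DMSO C.

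Delivery to the lysosome had 1 of 10 genes lower. Igf2r, the large mannose 6-phosphate receptor that brings newly made hydrolases to the lysosome, was at 101.6, 82.3 and 73.7 CPM in DMSO and 45.3, 74.6 and 44.5 CPM in OCA. OCA B reached into the DMSO range. Igf2r fell with a log2 ratio of -0.65 (SE 0.15 and adjusted p = 0.0126), and it was not called without OCA A, OCA C or DMSO A, nor with DESeq2, robust estimation or offsets for counts per base. The smaller receptor M6pr had 0.07 and the phosphotransferase Gnptab -0.10 on the log2 scale, both named after their values were seen.

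Genes of the acidifying pump and of other membrane proteins were not called. Of 16 V-ATPase subunits, 0 were called by edgeR, DESeq2 or limma-voom and 3 had an unadjusted p under 0.05, with a median of 0.06 and 12 of 16 above 0. Atp6v0d1, the subunit with the smallest p, went from 161 ± 13.1 in DMSO to 181 ± 10.2 CPM in OCA (adjusted p = 0.209). Of 17 other lysosomal membrane proteins, 0 were called by any of the 3 tools and 0 had an unadjusted p under 0.05, with a median of 0.01. The smallest p there was that of Sidt2, a nucleic acid transporter, with 417 ± 23.2 CPM in DMSO and 453 ± 13.2 CPM in OCA.

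The TFEB family and its nutrient control had 1 of 16 genes higher. Rragd, a Rag GTPase that places nutrient signalling on the lysosome and is itself a known TFEB family target, was at 163, 178 and 169 CPM in DMSO and 239, 243 and 244 CPM in OCA. Its groups were far apart, with a log2 ratio of 0.51 (SE 0.06 and adjusted p = 3.08e-05), and leaving out any 1 library kept the call. The Tfeb relatives Tfe3 and Mitf, named after their values were seen, had 0.08 and -0.11. No test compared the lists with each other.

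**Figure D5:**
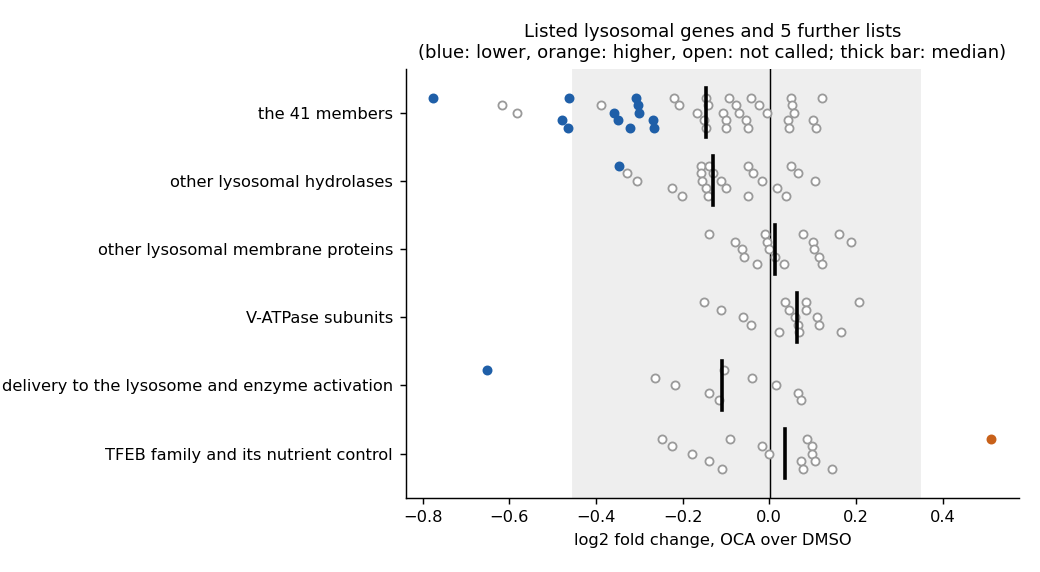
Log2 ratio (x axis, OCA over DMSO) of the 41 members and of the tested genes of 5 further lysosomal lists, with thick bars at the medians (-0.15 for the members, 0.06 for the V-ATPase). Blue points were called lower, orange higher and open ones neither; the grey band holds the middle of all tested genes, from the 5th to the 95th percentile (-0.45 to 0.35), and the thin line is their median.

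The promoters of the members were searched for the E-box CACGTG, the core of the sites that TFEB binds. RefSeq start sequences, from 250 bases before to 50 bases after each start (GRCm38.p6), were matched for 35 of the 41 members by symbol. CACGTG, which reads the same on both strands, was in 11 of the 35, or 31.4%, against 8.09% of 27025 genes with such a sequence. The 27025 include genes not tested here, whereas all 35 members were tested, and no share among tested genes was computed. The longer TCACGTGA, every copy of which holds a CACGTG, was in 4 of the 35, Gla, Ctsa, Ctsd and Mcoln1, against 1.12% of genes. An inverted repeat of AGGTCA with 1 base between, the form FXR is known to bind, was in 0 of the 35 and in 0.0111% of genes. Only this exact sequence was searched for, and 3 of the 27025 genes hold it. With a sequence so rare, its absence from the 35 cannot tell whether they hold FXR sites. A match is a description of the letters and not a site shown to be bound.

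E-boxes were present in members that fell and in members that did not. Of 11 called members with a sequence, 5 held CACGTG, namely Gaa, Ctsa, Ctsd, Ctsl and Lamp1, while Man2b1, Man2b2, Psap, Gm2a, Hexa and Ids held none. The other 6 with one were Glb1, Gla, Arsa, Naglu, Sgsh and Mcoln1, none of them called. Short stretches of 30 bases around a motif are shown for called genes and, for contrast, Mcoln1, with CACGTG in capitals. The Ctsa motif belongs to an alternative start, 901 bases inside the start given by the count table, and the window at the listed start holds none. The stretches lie at chr2:164833749-164833778 for Ctsa (plus strand), chr7:142387908-142387937 for Ctsd (minus strand), chr13:64370739-64370768 for Ctsl (minus strand) and chr8:3500462-3500491 for Mcoln1 (plus strand).
Ctsa: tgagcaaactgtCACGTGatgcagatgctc
Ctsd: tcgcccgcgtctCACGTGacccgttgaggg
Ctsl: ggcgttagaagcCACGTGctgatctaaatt
Mcoln1: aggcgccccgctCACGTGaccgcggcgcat

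Lamp1 held 4 copies, starting 61, 45, 28 and 15 bases before its start, more than any other of the 35 members with a sequence. They are in capitals in its 250 upstream bases, chr8:13158911-13159160 on the plus strand.
Lamp1: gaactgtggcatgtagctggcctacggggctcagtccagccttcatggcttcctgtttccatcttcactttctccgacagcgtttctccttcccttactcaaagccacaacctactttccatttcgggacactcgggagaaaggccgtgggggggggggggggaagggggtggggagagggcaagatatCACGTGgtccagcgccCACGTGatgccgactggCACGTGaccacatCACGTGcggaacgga

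Markers of stellate cells were far above those of other liver cells in every library. The summed level of 12 stellate cell markers was 3137 to 3420 CPM in DMSO and 3027 to 3396 CPM in OCA. Of these markers Reln fell (adjusted p = 0.0198) and Lhx2 rose (adjusted p = 0.0470). Reln was at 632, 508 and 502 CPM in DMSO and 261, 489 and 225 CPM in OCA, with OCA B near the DMSO libraries, and DESeq2 did not call it. Since macrophages are rich in lysosomes, 15 macrophage and Kupffer cell markers were summed, at 6.36 to 14.1 CPM in DMSO and 8.97 to 9.16 CPM in OCA. Only 2 of the 15, Csf1r and Cd68, had enough counts to be tested, and neither was called. The 10 hepatocyte markers summed to 20.0 to 24.3 CPM in DMSO and 21.1 to 22.8 CPM in OCA, with Trf and Apoa2 the highest. The 8 liver endothelial markers summed to 23.1 to 31.2 and 27.9 to 32.4 CPM, with Egfl7 and Tek the highest, and the 5 cholangiocyte markers to 5.47 to 7.48 and 4.35 to 5.61 CPM, with Spp1 and Krt19 the highest. None of these was called. The hepatocyte marker Tat and the cholangiocyte markers Krt7 and Cftr had 0 counts in all libraries.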

How the data were processed

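Polyadenylated RNA was extracted with Trizol and columns, and the NEBNext Ultra RNA kit was used for the libraries, per the labels. STAR, HOMER and the build mm10 are named in the submitters' processing notes; no source used here gives versions, strand setting or the handling of multiply mapped reads. The deposited table holds exon counts in steps of 0.5 for each gene symbol and library, per the file headers, and they were handled like expected counts and rounded to whole numbers (ties to even). Of the values in a library, 26.5% to 29.8% were not whole, and 0 count columns were left out.

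Genes kept by filterByExpr were scaled by TMM and tested in edgeR 4.0.16 (R 4.3.3) with the two-sided quasi-likelihood test without a replicate block, with Benjamini-Hochberg adjustment over 12687 genes and a threshold of 0.05. An SE is the log2 fold change divided by the square root of F. The alternatives included limma-voom (limma 3.58.1), DESeq2 1.42.0, other scalings, filters and offsets (loess, span 0.4), a replicate block and each library left out. Offsets for counts per base were added after seeing the data. Within groups, libraries were further apart than counting noise alone gives (chi-square per degree of freedom 4.4 to 8.01). Exon overlap used GENCODE M21. On simulated counts for OCA against DMSO, 98% of 50 genes changed by 2-fold were recovered and 9 unchanged genes were called.

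The members and lists were chosen with earlier results of these data known. All 41 members could be named; values in every library are given for members with an unadjusted p under 0.05, the 5 highest and 3 lowest levels per kilobase, Man2b2, Mcoln1 and Tfeb. Smpd1, given for the highest fold change, was added after its values were seen. From the further lists, called genes and the gene with the smallest p were named.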

Additional observations from a re-analysis of the deposited data

How the results depend on the processing

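Under the 15 alternatives other than leaving out 1 library, between 10 and 17 members were lower and 0 were higher. Of all tested genes, 1.81% to 4.75% were lower in these fits. Man2b1, Man2b2, Gaa, Hexa, Ctsa, Ctsd, Ctsl and Lamp1 were called in each of the 15. With 1 library left out, members lower ranged from 2 to 16, the further lysosomal genes lower from 0 to 4, all genes lower from 104 to 758 and all genes higher from 161 to 363. DESeq2 and robust estimation each called 1 further lysosomal gene lower, in place of 2. All genes lower numbered 703 with any count kept, 230 with length offsets, 244 with length and density offsets and 605 without OCA B and DMSO A, against 384. All genes higher numbered 469 with a replicate block and length offsets, against 276. The cause of these shifts was not tested. Some of the fits used fewer libraries or tested more genes than the main fit. The replicate block alone gave 306 higher and 508 lower genes and 14 members lower. The labels do not say that the letters pair the libraries, and the correlations give no sign of it: the deviations of same-letter libraries from their group means correlated at 0.000511, -0.0433 and 0.0535 over 12687 genes.

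For the 22 genes followed singly (members with an unadjusted p under 0.05 and further genes called), 369 comparisons with an alternative kept direction and call, 63 lost the call, 27 gained one, 3 moved by more than 1 SE without a call, and 0 changed direction. Among the other members, 9 crossed 0 in 27 fits in all: Neu1, Gla, Naglu, Idua, Npc2, Ctsh, Ctsk, Ctsz and Tfeb. With 3 libraries a group, changes near 1.3-fold are often missed (46% recovered in simulated data). Members at a few CPM, such as Ctsh, have errors too large for a direction. Ctsh lies below the level at which changes were simulated.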

Other observations

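A further 3 groups of genes that feed or run the lysosome were looked at after the results above had been seen. None of their members was called by edgeR. Of 9 endocytic receptor genes 6 were tested, with a median log2 fold change of -0.13 and 3 unadjusted p-values under 0.05. Lrp1, the large scavenger receptor, was at 1212 ± 198 CPM under DMSO and 783 ± 355 under OCA (log2 ratio -0.63 with SE 0.19 and adjusted p = 0.0623), and limma-voom called it lower. The groups of Lrp1 overlapped: OCA B, at 1193 CPM, lay above DMSO B (1149 CPM) and DMSO C (1053 CPM). The transferrin receptor gene Tfrc had 225 ± 7.14 and 203 ± 12.01 CPM, with no overlap of the groups (adjusted p = 0.218). The scavenger receptor gene Scarb1 lay the other way, at 152 ± 6.50 and 172 ± 8.32 CPM, also with no overlap (log2 ratio 0.17, adjusted p = 0.143). The 14 tested genes of endosome tethering and fusion, such as Rab7, Vps11 and Vps16, had a median of 0.06, with 11 above 0 and 0 unadjusted p-values under 0.05. The 5 cystatin and serpin inhibitors of cathepsins had a median of 0.06; Cst3, cystatin C, was at 179 ± 25.4 CPM in DMSO and 191 ± 4.20 CPM in OCA. DESeq2 called 0 of the genes in these groups.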
